A study of Mus musculus with 9 samples.

Results

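The probes described here are those for mouse miRNAs numbered miR-1892 to miR-1971, taken by name with any letter, arm or star suffix. They were 72 of the 1135 miRNA probes on the array, and the rule that takes them reads no measured value. The arrays were hybridized with total RNA of glomeruli isolated by magnetic bead perfusion from untreated female mice, with 3 mice and 3 arrays in each of 3 groups. The control group was C57BL/6 at 9 months of age. Early GN (glomerulonephritis) was B6.MRLc1 at 9 months, and late GN was B6.MRLc1 at 14 months. B6.MRLc1 is a congenic line that carries a telomeric stretch of chromosome 1 of the autoimmune strain MRL/MpJ on the C57BL/6 background, so both GN groups share this interval and the controls lack it. In the deposited labels the strain of the early GN mice reads C57BL/6 and the series text exchanges the ages of both stages, so the groups were taken from the disease state, with which titles and ages fit. Between controls and late GN mice lay an age gap of 5 months, with no control array at the older age, so that stage and age cannot be told apart.

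A miRNA is cut from a hairpin transcript, and its mature strand guides the Argonaute protein to mRNAs that pair with its seed, the bases near its 5′ end. Numbers in miRNA names follow the order of discovery, and this stretch was entered when deep sequencing of small RNAs brought in many low-abundance miRNAs, most of them not conserved beyond rodents. A star or an arm suffix (-5p, -3p) marks which strand of the hairpin a probe detects. No role is assigned to single members below, and what is said of a member's surroundings concerns the gene in which it lies. The glomerulus, the filter of the kidney, holds podocytes, endothelium and mesangial cells, and each contributes miRNAs to such RNA.

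By exact name, 42 of the 72 members matched a mature sequence in RefSeq (mouse build GRCm38.p6). No match was found for miR-1930* and miR-1965, so their sequences are not given. The sequences that follow are those of matched members on which the comparisons turn and of both strands of the miR-1894 hairpin. They also include the pair of members listed on all 3 late GN arrays and on no control array, and the pair whose seed belongs to a well-known family. Capitals mark the seed, bases 2 to 8 from the 5′ end.
miR-1892: aUUUGGGGacgggagggaggau
miR-1962: aGAGGCUGgcacugggacacau
miR-1964-5p: aGCUGGAGcacaaaagccggug
miR-1951: gUAGUGGAgacugguguggcua
miR-1894-5p: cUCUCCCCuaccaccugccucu
miR-1894-3p: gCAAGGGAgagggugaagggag
miR-1932: gUUGCGGAcagcgcuaggucgg
miR-1969: aAGAUGGAgacuuuaacaugggu
miR-1961: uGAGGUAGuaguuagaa
miR-1928: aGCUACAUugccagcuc

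The 42 sequences held 42 different seeds, so no pair of these 42 members shared one. The remaining members had no sequence to compare. Of the 42, 6 shared their seed with a mature miRNA outside the members, namely miR-1903, miR-1928, miR-1946b, miR-1954, miR-1961 and miR-1970. The seed of miR-1961 was that of 10 other mature miRNAs, namely 9 let-7 members and miR-98-5p. That of miR-1928 was shared with miR-221-3p and miR-222-3p. Both are short sequences, and neither probe gave a steady signal in these glomeruli: miR-1928 was listed on 0 of 9 arrays and miR-1961 on 4. The 43 genomic positions of the 42 sequences lay on 17 chromosomes, and none had another miRNA gene within 10000 bases of it. Of these positions, 35 lay within the span of another gene, with strand not compared. miR-1892 lies at chr12:54645943-54645964 in Sptssa, which encodes a small subunit of the enzyme that starts sphingolipid synthesis. miR-1962 lies at chr7:135566234-135566255 in Ptpre, a protein tyrosine phosphatase gene. miR-1961 lies in Shroom3, which encodes an actin-binding protein, miR-1954 in Eng (endoglin, a TGF-β co-receptor of endothelium) and miR-1903 in Nrp1 (neuropilin-1, a co-receptor of VEGF). miR-1906 has a position in the imprinted non-coding RNA gene Meg3 on chromosome 12 and another on chromosome X.

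The extraction software gave a normalized intensity, on a linear scale without unit, only for probes it took as detected, here called listed. A total of 28 members were listed on all 9 arrays, 35 on 1 to 8 arrays and 9 on none. The members listed on no array were miR-1912, miR-1912*, miR-1928, miR-1929, miR-1930, miR-1948*, miR-1953, miR-1955-5p and miR-1968. The control arrays listed 41, 41 and 42 members, the early GN arrays 29, 37 and 52, and the late GN arrays 58, 48 and 50. All 3 late GN arrays thus listed more members than any control array, whereas the early GN arrays lay on both sides of the controls. Over all 1135 probes the picture was alike, with 595, 588 and 589 listed on the control arrays, 428, 498 and 738 on those of early GN and 755, 720 and 693 on those of late GN. By a stricter criterion, a scanner signal above the mean plus 2 SD of the blank spots, the medians were 32 members in control, 32 in early GN and 40 in late GN, beside 460, 410 and 583 of all probes.

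**Figure D1:**
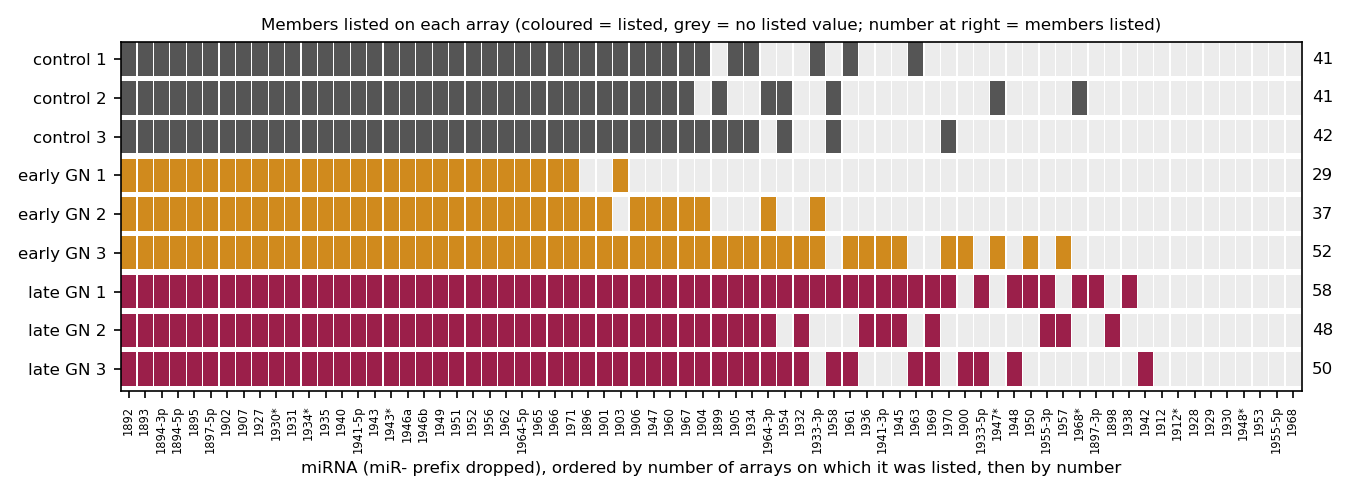
Each column is a member and each row an array, coloured where the member had a listed value and grey where it had none, with the number of listed members at the right. The 28 members at the left were listed on all 9 arrays, early GN array 1 had the fewest (29) and late GN array 1 the most (58).

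Compared with control, 22 of the 72 members were listed on more late GN arrays, 1 on fewer (miR-1947*, named after its values were seen) and 49 on as many. The gain of 30.6% of the members was close to that of the other probes (26.2%), and the loss was 1.39% of the members against 3.39% of the other probes. In early GN, 9 members were listed on more arrays and 14 on fewer, counts that were not made over all probes. Listed on all 3 arrays were 35 members in control and 28 in early GN, beside 496 and 413 of all 1135 probes. Of the 7 members listed on 8 arrays, 6 were missing on early GN array 1 alone, which also listed the fewest of all probes (428).

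miR-1932 and miR-1969 were the members listed on all 3 late GN arrays and on no control array. miR-1932 was at 8.95, 12.2 and 8.87 on the late GN arrays, and on early GN array 3 it was at 12.9. miR-1969 was at 8.90, 5.84 and 6.00 on the late GN arrays and had no listed value in early GN. These listed values were not borne by the scanner signal throughout. Above the blank mean, miR-1932 had 3.52, 9.61 and 1.23 units on the late GN arrays and miR-1969 had 7.52, 0.615 and 8.23, against limits of 2 blank SD of 5.54 to 6.65 units there. Only 1 and 2 of the 3 late GN arrays passed that limit, so that no fold is given. Another 13 members were listed on 1 or 2 late GN arrays and on no control array. These counts of 2 and 13 members were not made over all probes. No test was made on these members. Of all 1135 probes, 436 were listed on no control array and 279 on no late GN array, beside 24 and 10 of the members.

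The members listed on 1 to 8 arrays were dim, and their listed values ran from 4.96 to 26.1, with a median of 10.0. Only 1 of these 35 members was listed on early GN array 1, compared with 9 and 24 on early GN arrays 2 and 3, 13 to 14 on the control arrays and 20 to 30 on the late GN arrays. miR-1960, in the span of Hadhb, a gene of mitochondrial fatty acid oxidation, was at 10.2, 8.81 and 9.43 in control and at 22.96, 21.8 and 17.6 in late GN. miR-1967 was at 12.9, 8.88 and 12.6 in control and at 24.7, 23.7 and 17.1 in late GN, so that for both miRNAs no late GN array overlapped with a control array. This also held for miR-1896, miR-1901 and miR-1947, and thus for 5 of the 7 members listed on 8 arrays, while of all 51 probes listed on 8 arrays, with every control and late GN array among them, 56.9% were above every control. The other 2 overlapped. miR-1906 of the Meg3 locus was at 12.9, 8.99 and 16.02 in control and at 16.2, 12.6 and 11.03 in late GN. miR-1903 of the Nrp1 locus was at 15.2, 8.99 and 12.8 in control and at 15.1, 8.13 and 13.4 in late GN. miR-1961, with the let-7 seed, was listed at 8.64 on 1 control array, at 8.78 on 1 early GN array and at 11.5 and 5.89 on 2 late GN arrays. These values are given as they stand, with no test.

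The 28 members listed on all 9 arrays were compared between groups within a fit of all 411 miRNAs so listed (limma on log2 values, Benjamini-Hochberg adjusted p under 0.05). The arrays differed as a whole. On the log2 scale, the 28 members had medians of -0.84, -0.04 and 0.70 relative to their control means on early GN arrays 1, 2 and 3, where all 411 miRNAs had -1.03, -0.61 and 0.51. The late GN arrays gave 1.00, 1.12 and 0.71 for the members and 0.44, 0.42 and 0.33 for all 411. On each of the 6 GN arrays the members therefore stood above the median of all miRNAs. The median coefficient of variation of a member was 10.4% in control, 53.7% in early GN and 13.5% in late GN. Because the fit gives all miRNAs and groups 1 spread, every log2 fold change has a standard error of 0.44, which carries the scatter of the early GN arrays.

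**Figure D2:**
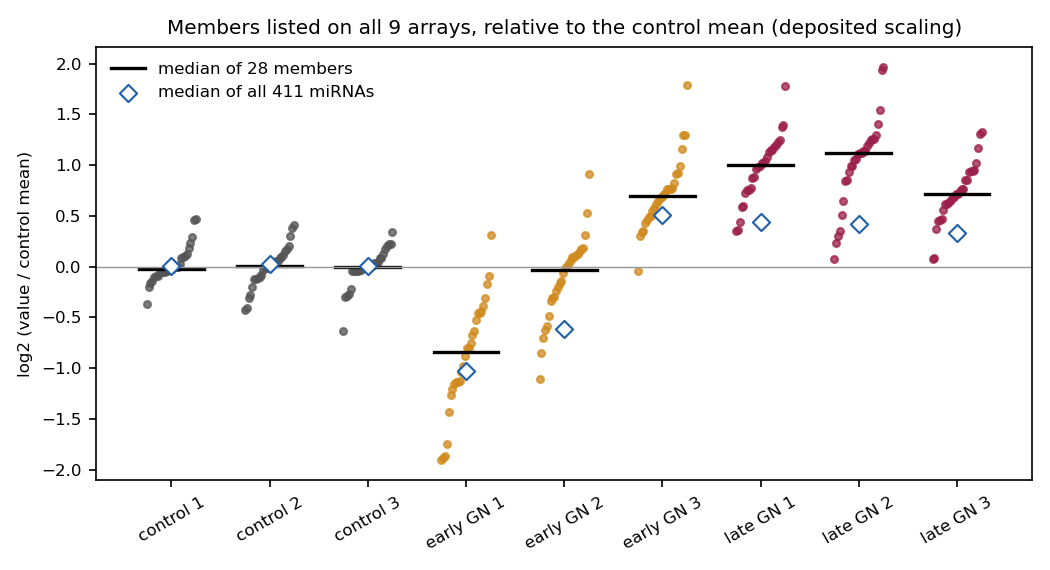
Each point is 1 of the 28 members listed on all 9 arrays, as log2 of its value over its control mean, by array. Black bars are the member medians (-0.84, -0.04 and 0.70 for early GN, then 1.00, 1.12 and 0.71) and open diamonds the medians of all 411 miRNAs.

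In late GN all 28 members had a positive log2 fold change against control, as did 60.3% of all 411 miRNAs, and 3 of the members, miR-1962, miR-1930* and miR-1892, passed the test as higher. No member was lower. Over all 411 miRNAs, 3.89% were called higher and 0.243% lower in this comparison. The members' median log2 fold change was 0.96, compared with 0.45 over all 411, with a range from 0.20 (miR-1902) to 1.64 (miR-1962). For 25 of the 28 members, every late GN array was above every control array, whereas this held for 49.1% of all 411. With no adjustment of p, limma put 18 members under 0.05 as higher and 0 as lower, against 27.5% and 2.92% of all 411. The arrays measured bulk RNA, in which a change in the number of cells of a type and a change of RNA per cell cannot be told apart.

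miR-1892 was at 48.9, 49.3 and 39.1 on the control arrays, at 56.5, 85.9 and 90.5 on the early GN arrays and at 119.5, 132 and 112 on the late GN arrays. With the deposited scaling the 3 groups did not overlap, and early GN lay between control and late GN. This order depended on the scaling of the arrays, as given below with the early GN results. The log2 fold change of miR-1892 in late GN was 1.41 ± 0.44 (SE, adjusted p = 0.036, limma), a ratio of means of 2.65. miR-1892 is among the miRNAs in a heat map of the study, which were selected on these same arrays, so that its call here is not independent evidence.

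miR-1962 was at 10.7, 15.6 and 9.75 in control, at 5.94, 12.6 and 40.7 in early GN and at 40.2, 45.99 and 26.4 in late GN. Late GN lay above control on every array, while early GN spread over both groups, with array 1 below all controls and array 3 within the late GN range. The log2 fold change in late GN was 1.64 ± 0.44 (adjusted p = 0.016, limma). On the scanner, miR-1962 had 7.33, 4.19 and 4.94 units over the blank mean in control and exceeded the limit of 2 blank SD on only 1 of these 3 arrays, so that its control level was close to the background and the size of the fold is uncertain.

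miR-1930*, the star strand of a hairpin whose other strand (miR-1930) was listed on no array, was at 7.46, 7.52 and 8.18 in control, at 5.35, 8.22 and 19.0 in early GN and at 20.1, 29.4 and 19.3 in late GN. Late GN was above both other groups on every array, although by a narrow margin over early GN array 3. Its log2 fold change in late GN was 1.55 ± 0.44 (adjusted p = 0.017, limma). The control signal of miR-1930* was at the blank level, with -0.67, 1.19 and 1.94 units over the blank mean on the scanner against 9.52, 16.6 and 18.2 in late GN. Late GN arrays 2 and 3 were scanned at a higher photomultiplier gain (36 and 37) than the control arrays (35). For a lower bound, control was set to the limit of 2 blank SD (5.28 to 6.75 units). Each array was then multiplied by its own factor from scanner signal to listed value. Under this scaling late GN was at least 2.20-fold higher, a value that depends on the factors, which fit only part of the listed values.

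**Figure D3:**
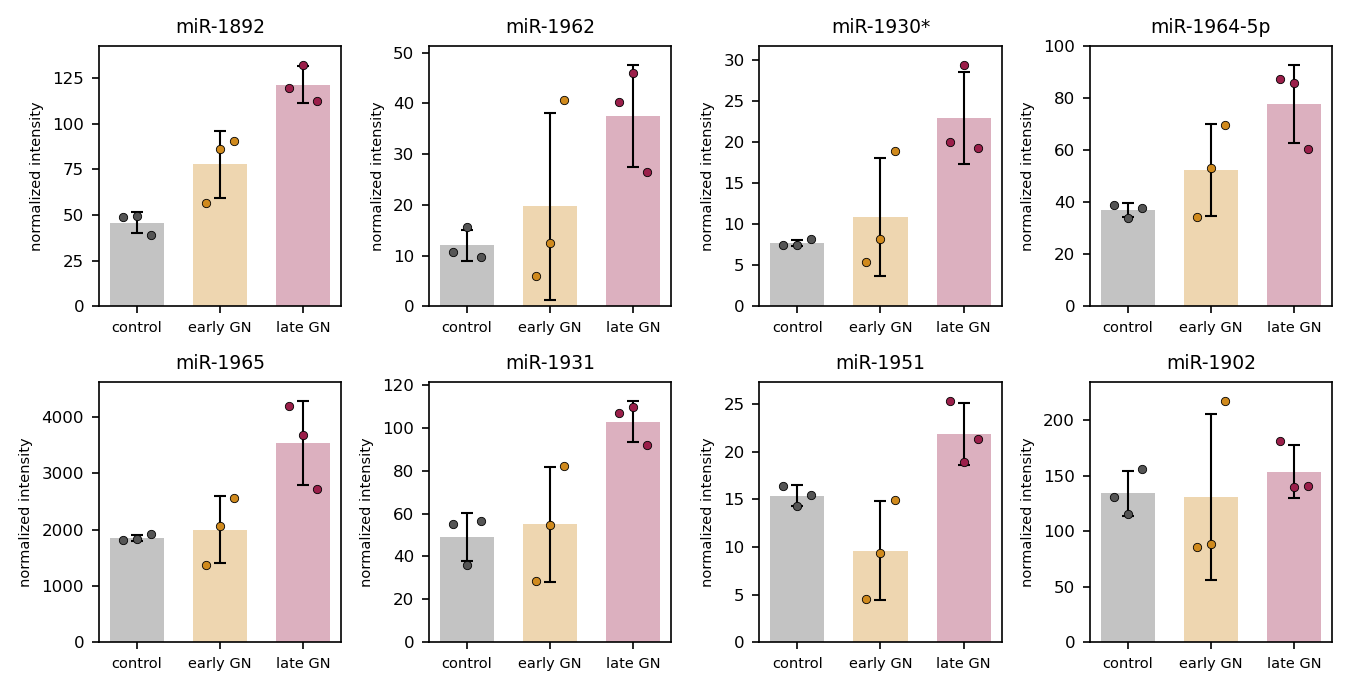
Normalized intensity (linear axis from 0) of 8 members listed on all 9 arrays, by group. Points are single arrays, bars group means and error bars SD (n = 3). With the deposited scaling, the early GN arrays of miR-1892 (56.5 to 90.5) lie between control (39.1 to 49.3) and late GN (112 to 132). For miR-1902 the groups overlap.

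For each of these 3 miRNAs the exact two-sided permutation test of late GN against control gave p = 0.1, the smallest that 3 arrays against 3 allow. With each array left out in turn, the log2 fold changes stayed at 1.47 to 1.87 for miR-1962, 1.35 to 1.66 for miR-1930* and 1.30 to 1.47 for miR-1892, while the calls moved over the whole array. Without any 1 control array, 0 members and 0 of all 411 passed as higher, as without late GN array 1 or 2, and without late GN array 3 miR-1962 alone passed among the members (1.70% of all). Without early GN array 1, 20 members passed (31.6% of all), and without early GN array 3, 21 members (41.8%). A random slide effect left log2 fold changes of 1.58 for miR-1962, 1.5 for miR-1930* and 1.40 for miR-1892 and 0 calls over all 411 (limma, adjusted p = 0.058, 0.058 and 0.076), and late GN arrays shared a slide with no other group, so no within-slide value can be given.

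miR-1965, miR-1894-3p, miR-1902, miR-1940 and miR-1956 were named for their control level whatever their change. miR-1965 was at 1820, 1835 and 1917 in control, at 1373, 2065 and 2559 in early GN and at 4202, 3686 and 2725 in late GN, the late GN arrays all being the highest. Its log2 fold change of 0.91 in late GN did not pass (adjusted p = 0.15, limma). miR-1940 was at 107, 118 and 109 in control and at 247, 241 and 214.2 in late GN, and miR-1956, from the span of the cap-binding translation factor gene Eif4e, at 99.4, 105 and 106 and at 203.8, 246 and 170. Neither overlapped with control in late GN, and neither passed, with log2 fold changes of 1.07 and 0.98 (adjusted p = 0.12 and 0.13). miR-1902, located in Hipk3, had control values of 131, 116 and 156 and late GN values of 181, 139.8 and 140.5. These overlapped, and its log2 fold change of 0.20 was the smallest of the 28 (adjusted p = 0.76).

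Where both strands or both letters of a number were listed on all 9 arrays, their log2 fold changes in late GN are given side by side, with no difference between them tested. The strands of miR-1894, a hairpin within the Ppp1r10 gene, had 0.97 (miR-1894-5p) and 0.84 (miR-1894-3p). miR-1943 and miR-1943* had 1.10 and 0.96, and miR-1946a and miR-1946b had 1.04 and 0.75. None of these 6 passed (adjusted p = 0.11 to 0.22, limma). miR-1894-3p was at 161, 173 and 168 in control and at 286, 364 and 256 in late GN, and the other strand at 18.2, 21.7 and 19.0 and at 42.7, 35.3 and 37.7. Neither strand overlapped with its controls.

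Among the remaining members, miR-1966, miR-1931, miR-1941-5p, miR-1964-5p and miR-1952 followed the called miRNAs, with log2 fold changes of 1.04 to 1.11 in late GN. miR-1931 was at 54.9, 36.3 and 56.5 in control and at 107, 109.8 and 91.7 in late GN, and miR-1964-5p at 39.0, 33.9 and 37.8 and at 87.3, 85.7 and 60.4. Each of the 5 lay above its controls on every late GN array, and none passed (adjusted p = 0.11 to 0.12, limma). The smallest changes besides miR-1902 were those of miR-1927 (0.22), miR-1897-5p (0.44), miR-1907 (0.49) and miR-1951 (0.50). In miR-1927 and miR-1897-5p late GN overlapped with control.

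The number of calls moved with the scaling of the arrays. When each array was centred on the same median of the 411 miRNAs (common median), 19 of the 28 members were higher and 0 lower in late GN (limma), while over all miRNAs 32.1% were higher and 29.9% lower, so that the balance between directions shifted from 16 against 1 to 132 against 123. The members' median log2 fold change was then 0.65 and that of all 411 was 0.13, compared with 0.96 and 0.45 before. miR-1892, miR-1930* and miR-1962 kept an adjusted p of 0.0038, 0.0019 and 0.0074. The 16 others were miR-1940, miR-1966, miR-1964-5p, miR-1952, miR-1931, miR-1941-5p, miR-1895, miR-1943, miR-1893, miR-1956, miR-1943*, miR-1894-5p, miR-1894-3p, miR-1965, miR-1971 and miR-1934*. With scanner signals corrected by normexp and quantile normalized, 12 members were higher and 0 lower, with a median of 0.18, beside 18% higher and 19.0% lower over all 411. In none of the 6 scalings was a member called lower in late GN. The share of all miRNAs called lower ran from 0.243% to 29.9%. A positive log2 fold change was held by 24 to 28 of the 28 members, depending on the scaling.

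**Figure D4:**
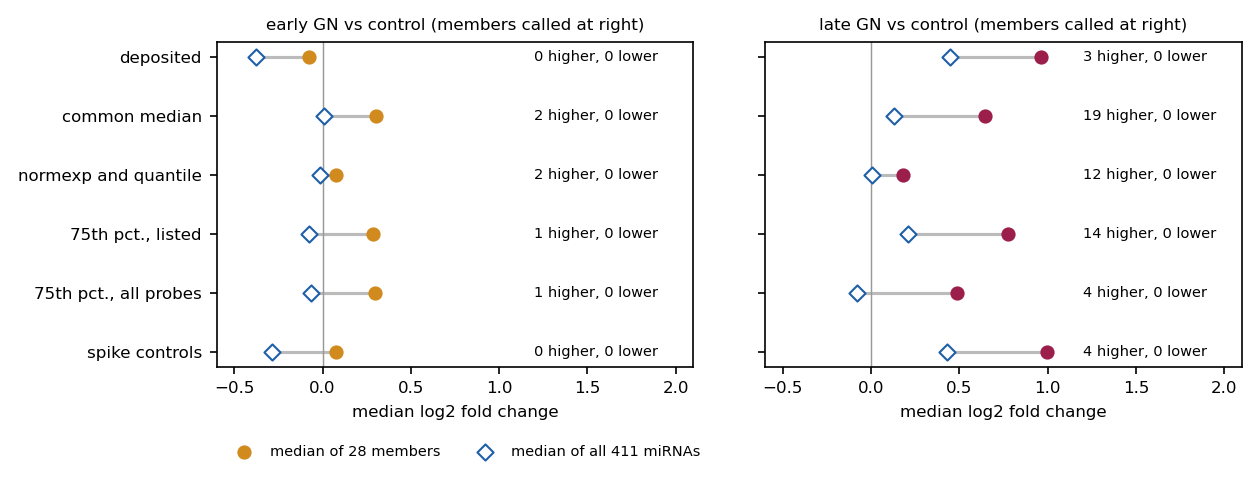
Median log2 fold change of the 28 members (filled circles) and of all 411 miRNAs (open diamonds) against control in early GN and late GN, under 6 scalings of the arrays, with the number of members called at the right. In late GN the member median lay to the right of the median of all miRNAs under each scaling, from 0.18 (normexp and quantile) to 1.00 (spike controls).

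In early GN none of the 28 members passed in either direction (limma), and without adjustment of p their counts under 0.05 were also 0 higher and 0 lower. Over all 411 miRNAs, 0.243% were called higher and 0% lower, and 2.19% and 13.6% without adjustment. The members' median log2 fold change was -0.08, compared with -0.38 over all 411, and 10 of the 28 had a positive value, against 23.1% of all 411. The sign of this median turned under each of the 5 other scalings, which gave 0.08 to 0.31 with 17 to 22 members positive. The arrays did not move together. On early GN array 1, 25 members were below all 3 controls and 1 (miR-1892) above them, on array 2, 10 were below and 8 above, and on array 3, 26 were above and 0 below. The shares over all 411 miRNAs were 91.7% below on array 1, 62.5% below on array 2 and 73.0% above on array 3. These positions hold the scaling of the arrays, whose factors from scanner signal to listed value were 1.67 to 1.97 in control but 1.10, 1.25 and 2.35 on the early GN arrays. Before that scaling, 11 members were below all controls on array 1, 3 on array 2 and 1 on array 3 (53.8%, 42.8% and 24.1% of all 411), and 9, 19 and 19 were above (17.8%, 36.7% and 38.0%). Photomultiplier gain also differed on 3 arrays. It was 36 on early GN array 1 and late GN array 2, 37 on late GN array 3 and 35 on the other arrays. This limits the unscaled values, including the scanner units given for late GN.

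miR-1892 was the only member above all controls on every early GN array, which held for 1.95% of all 411 miRNAs, and none was below them on every array (6.33% of all 411). With the deposited scaling the log2 fold change of miR-1892 was 0.74 ± 0.44, which did not pass (adjusted p = 0.36, limma). With a common median the value was 1.12 and passed (adjusted p = 0.020), as it did with 3 of the other 4 scalings but not with spike controls (adjusted p = 0.22). The same held at the common median for miR-1964-5p with 0.83 (adjusted p = 0.030, limma), while 6.81% of all miRNAs were called higher there. miR-1964-5p was at 34.5, 53.1 and 69.7 in early GN against 33.9 to 39.0 in control, and array 1 overlapped with the controls. Early GN array 1 and control array 3 lay on the same slide, and between them the log2 difference of miR-1892 was 0.53, compared with a median of -0.98 over the members and -1.01 over all 411. Whether miR-1892 was lower in early than in late GN depended on the scaling. Against control in early and late GN, its log2 fold changes were 1.12 and 1.10 with a common median. They were 0.44 and 0.46 with normexp and quantile normalization, and 1.17 and 1.23 with the 75th percentile of listed probes. With that of all probes they were 1.18 and 0.94, and with spike controls 0.97 and 1.45.

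At the other end, miR-1951 had the lowest value in early GN, a log2 fold change of -0.83 (adjusted p = 0.33). It was at 16.4, 14.2 and 15.4 in control, at 4.55, 9.42 and 14.9 in early GN and at 25.3, 18.9 and 21.3 in late GN, so that late GN did not overlap with control while early GN did. miR-1927 (-0.55), miR-1946b (-0.51), miR-1907 (-0.49) and miR-1971 (-0.43) came next. For miR-1946b the values were 46.2, 48.1 and 45.1 in control and 12.4, 40.5 and 69.4 in early GN, a spread that took in the controls. Without early GN array 3, 9 members passed as lower, miR-1951, miR-1946b, miR-1907, miR-1971 and miR-1927 among them, and miR-1892 as higher, while 56.4% of all 411 were then called lower.

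**Figure D5:**
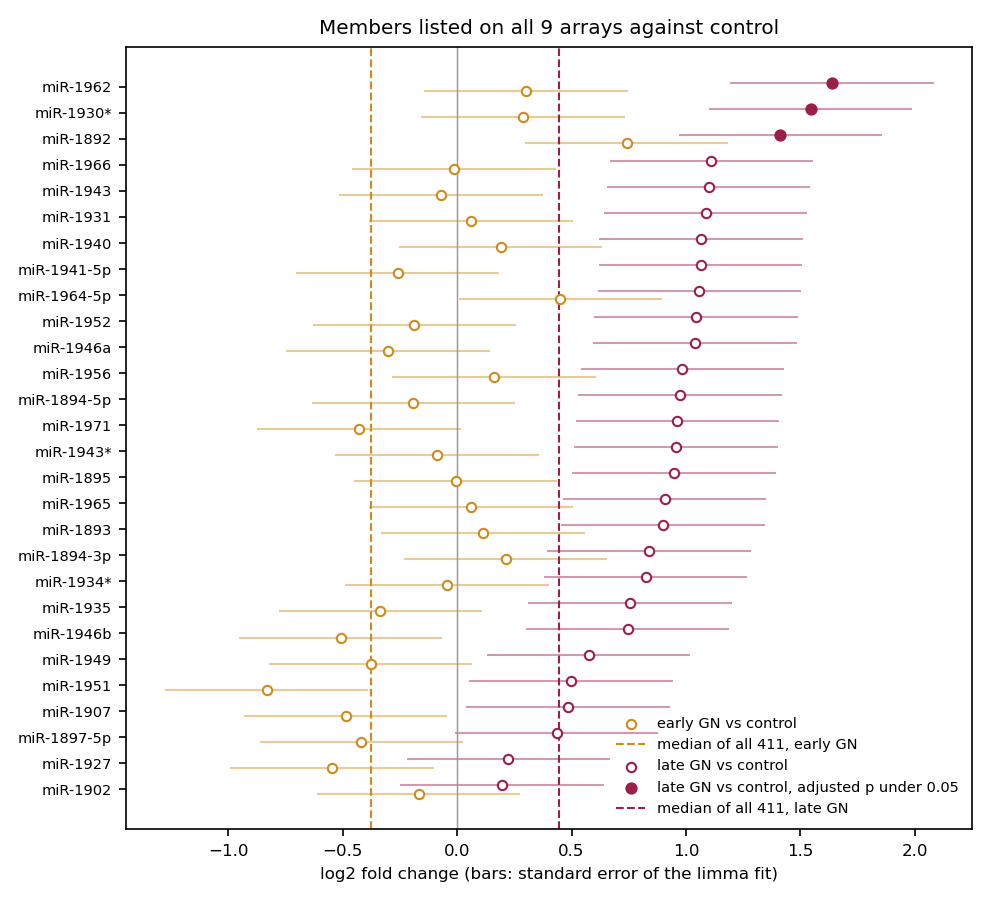
Log2 fold change of each of the 28 members in early GN and late GN against the same controls, with the standard error of the limma fit (0.44) as bars. Filled points passed an adjusted p under 0.05, and dashed lines are the medians of all 411 miRNAs (-0.38 for early GN, 0.45 for late GN).

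Between the stages, none of the 28 members passed in late GN against early GN in either direction (lowest adjusted p = 0.071, limma), with 1.46% of all 411 called higher and 0.243% lower. Without adjustment, 18 members were under 0.05 as higher and 0 as lower, and 30.2% of all miRNAs as higher. All 28 members had a positive difference, as did 97.1% of all miRNAs. The median log2 difference was 1.00 over the members and 0.70 over all 411, and the highest values were 1.39 (miR-1971), 1.34 (miR-1946a), 1.34 (miR-1962), 1.33 (miR-1951) and 1.32 (miR-1941-5p). miR-1971 was at 8.01, 14.0 and 36.69 in early GN and at 42.7, 47.3 and 36.71 in late GN, so that its groups were separated by early GN array 3 only narrowly. For 17 members every late GN array was above every early GN array, against 21.4% of all 411. With a common median the members' median fell to 0.30 and that of all miRNAs to 0.00, and again none passed. Without early GN array 3, all 28 members passed as higher, as did 91.5% of all 411.

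The matched sequences of the members were rich in G. In the 13 members listed on all 9 arrays with a sequence, the median GC content was 59.1% and the median G content 40.9%, compared with 56.5% and 28.3% in 88 other probes listed on all 9 arrays. miR-1892, miR-1894-3p and miR-1895 are examples, and miR-1894-5p on the opposite strand of its hairpin is rich in C. Among the 88 other probes, the log2 fold change in late GN followed GC content (Spearman's rho = 0.41 across miRNAs, which share the same arrays), with a median of 0.83 for the 34 with at least 60% GC and 0.49 for the 54 below. Within the 13 members rho was 0.05, and the medians were 0.96 for the 6 with at least 60% GC and 1.06 for the 7 below. The change also differed with the level in control. Other probes with a control value above 200 had a median log2 fold change of -0.28 in late GN (n = 118), and those up to 200 had 0.59 (n = 265), whereas 27 of the 28 members were in the lower class and had 0.96. The part of base composition and of signal level in the members' change was not tested.

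Markers of the cells in the preparation were read as summed intensities. The 8 podocyte-associated miRNAs, all listed on all 9 arrays, summed to 67820 to 74870 in control, and to 29980 to 72280 and 43760 to 49560 on the early and late GN arrays. The sums of 2 endothelial markers were 24620 to 27460, 10090 to 21870 and 15470 to 20720 in the same order. Those of 4 mesangial and smooth muscle markers were 9091 to 10130, 4199 to 9184 and 6946 to 8275, and of 2 red blood cell markers, 1 of them listed throughout, 840 to 961, 206 to 797 and 430 to 689. Of 6 leukocyte markers, 5 were listed on all 9 arrays, and the sum was 521 to 865, 221 to 933 and 730 to 1321. The 4 proximal tubule markers, 3 of them listed throughout, summed to 786 to 1142, 367 to 1073 and 1072 to 1274. Leukocyte and tubule sums in late GN were thus at or above the middle of the control range while podocyte, endothelial, mesangial and red blood cell sums were below the control range, and their part in the higher member values was not tested.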

How the data were processed

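The authors read the arrays with the 3D-Gene Scanner, ran the 3D-Gene Extraction software (versions not given in the sources used here) and deposited a globally normalized, linear intensity for each listed probe and the raw scanner intensity. The median listed value was 25 on every array, but only 33.5% to 45.3% of listed values were within 5% of the scanner median minus the blank mean times 1 factor per array, so the software's exact steps and its listing rule stay unknown. Scanner intensity served for alternatives and for 1818 blank spots per array. Names came from the scanner output and sequences from RefSeq.

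Log2 of the deposited intensity was tested with limma 3.58.1 (R 4.3.3) over the 411 miRNAs listed on all 9 arrays, with 3 groups, 6 residual degrees of freedom and 2-sided p adjusted by Benjamini-Hochberg in each of 3 comparisons. Samples are separate mice, and their number limits the precision. On simulated data, 31 of 31 log2 changes of 2 and 11 of 29 of 1 were called. The simulated noise was independent between miRNAs and equal in all groups. The real arrays shifted as a whole and scattered more in early GN, so these rates do not give the power in these data. Named with values were members passing with the deposited or common-median scaling, the 5 highest in control, the 5 largest and 5 smallest changes per comparison, those listed in all of one group and none of another, and numbers with both strands or letters listed throughout. The stretch of numbers and the lists were chosen with earlier results of these data known. Alternatives were 5 scalings, a pseudocount of 16, a wider set, the series table, slide and replicate blocks, fits of only the groups compared, the methods' t-test and each array left out. Other steps used Python 3.11.15 with scipy 1.17.1, pandas 2.3.3, matplotlib 3.10.9 and numpy 2.4.6.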

Additional observations from a re-analysis of the deposited data

Results flagged for a closer look

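miR-1951 was, with the deposited scaling, the member whose stages lay on opposite sides of the control mean on every array. On the log2 scale it lay between -1.75 and -0.04 (array 3) in early GN and between 0.30 and 0.72 in late GN. How many of the other miRNAs did so was not counted. The early GN log2 fold change was negative in each scaling but ran from -0.83 as deposited to -0.03 with normexp and quantile normalization. On the scanner, miR-1951 had 5.68, 5.88 and 6.4 units over the blank mean in early GN, against 6.33, 10.2 and 6.94 in control. Its log2 difference of late GN against early GN was 1.33 (adjusted p = 0.071, limma), which did not pass. Its scanner signal exceeded the blank mean plus 2 SD on 1 of the 3 early GN arrays and on 2 of the 3 control arrays, so that the low side lies at the background and the size of the difference is uncertain.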

How the results depend on the processing

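In late GN against control, 3 members were higher with the deposited scaling (3.89% of all 411). The number was 19 with a common median (32.1% of all), 12 with normexp and quantile normalization (18%), 14 and 4 with the 75th percentile of listed (25.5%) and of all probes (9.00%), 4 with spike controls (9.00%), 6 with a pseudocount of 16 (9.25%), 24 with only both compared groups fitted (48.7%), 23 by the methods' t-test (41.6%) and 0 with slide as a random block (0%). In the wider set it was 2 of 51 members (2.09%) and with replicate number as a block 2 (3.65%). In both, miR-1892 kept its log2 fold change of 1.41 and lost its call (adjusted p = 0.079 and 0.051). The numbers share no litter or day in the labels, and correlations of same-numbered arrays ran from -0.22 to 0.34. With each array left out in turn it was 0 to 21 (20 without early GN array 1, 21 without array 3). Without early GN array 1 or 3 the members' median stayed at 0.96. The median standard error was then 0.33 and 0.224, against 0.444 with all arrays. The cause of these shifts was not tested. The members' median of 0.96 moved to 0.18 with normexp and quantile normalization and to 0.49 with the 75th percentile of all probes.

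In early GN, 0 members were higher with the deposited scaling, 2 with a common median (6.81% of all 411), 2 with normexp and quantile normalization (6.57%), 1 with the 75th percentile of listed probes (3.41%) and 1 with that of all probes (4.14%). Leaving out arrays gave 0 to 1 higher and 0 to 9 lower. In late GN against early GN, the members' median of 1.00 moved to 0.30 with a common median, 0.085 with normexp and quantile normalization, and 0.47 and 0.17 with the 75th percentile of listed and of all probes. Calls as higher were 0 to 28 when arrays were left out, and 0 under the 12 other alternatives. Of 1638 repeats on the 26 named miRNAs, 23 lost a call, 156 gained one, 99 changed sign without a call and 0 changed the sign of a called value. Numbers of listed members kept within 1.5 times of their medians. Dim signal limits these members, since 8 of the 28 did not exceed the blank mean plus 2 SD on some array.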
